A study of Mus musculus with 4 samples.

Results

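Tumour regulatory T cells are described here from single-cell RNA sequencing of immune cells sorted from B16-F10 melanomas of wild-type (WT) and Ndufa4-deficient (KO) mice. The cells were chosen by their own raw counts of unique molecular identifiers (UMIs, one per captured RNA molecule). A barcode counted as a cell when it held at least 500 UMIs and 200 genes with at most 10% of its UMIs from mitochondrial genes. It was a member when it held at least 1 UMI of Cd3d, Cd3e or Cd3g, at least 1 UMI of Foxp3, no UMI of Cd8a or Cd8b1 and no UMI of C1qa. The rule found 299 cells, 103 of the 4019 WT tumour cells and 196 of the 4656 KO tumour cells, among 23157 cells of the whole series. In the spleens, which were sorted on the myeloid marker CD11b, 7 WT and 14 KO cells met the same rule and were not compared.

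Regulatory T cells are CD4 lymphocytes that restrain other immune cells. The transcription factor FOXP3 maintains their identity, and high levels of the interleukin-2 receptor alpha chain (Il2ra) and of the inhibitory receptor CTLA-4 equip them to take up interleukin-2 and to strip costimulatory ligands from dendritic cells. In tumours they often carry an activated programme with OX40 (Tnfrsf4), GITR (Tnfrsf18), 4-1BB (Tnfrsf9) and ICOS, and they can release interleukin-10, transforming growth factor beta, amphiregulin and cytotoxic granule proteins. NDUFA4 is a subunit of cytochrome c oxidase, complex IV of the respiratory chain.

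The mice were males on the C57BL/6 background, 8 weeks old, and tumours were taken on day 18 after B16-F10 cells, a mouse melanoma line, had been placed under the skin. Live CD45+ cells of the tumour and CD45+ CD11b+ cells of the spleen were sorted, so each of the 4 libraries is 1 genotype in 1 organ. Each pool drew equally on 3 mice per genotype according to the design text, while the protocol allows for as many as 4, and 16000 cells were loaded per lane. The labels do not say which part of Ndufa4 was removed, or in which cells.

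With 1 pooled library per genotype there was no spread between mice to test against. Every comparison below is between the 2 tumour libraries, has no p-value, and carries 95% intervals that cover counting error only. The tumour libraries held 47754169 WT and 63560706 KO UMIs, and cells that passed had a median of 7502 and 10534 UMIs. The mitochondrial limit removed 685 WT and 1420 KO barcodes. Among members the depths were closer, with medians of 6939 UMIs in WT and 7920 in KO and sums of 988685 and 2127803 UMIs. The tumour libraries shared 6 barcodes with each other, and no barcode was a member in both.

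Foxp3 itself (ENSMUSG00000039521, chromosome X, 7573644 to 7595245, GRCm38) was used by the rule and is given as a description. Members held 492 Foxp3 UMIs in WT and 1023 in KO, which is 498 and 481 CPM (UMIs of a gene when the members' UMIs are scaled to a total of 1000000). A median member held 4 UMIs in WT and 5 in KO. Just inside the limit were members with a single Foxp3 UMI, 18 in WT and 36 in KO. Just outside it were the conventional CD4 cells, defined as CD3+ Cd4+ cells without a Foxp3, Cd8a, Cd8b1 or C1qa UMI, 68 in WT and 145 in KO. Ikzf2, which encodes the Treg factor Helios, stood at 2585 CPM in the single-UMI members of WT, at 1875 CPM in WT members with more Foxp3 and at 498 CPM in WT conventional CD4 cells. In KO the same 3 values were 2142, 2018 and 167 CPM. Il2ra stood at 172 CPM in the single-UMI members of WT against 86.5 CPM in conventional CD4 cells, and at 282 against 48.5 CPM in KO. Members at the limit were thus nearer to the other members than to conventional CD4 cells for Helios, and had less Il2ra than the members with more Foxp3, which reached 494 and 392 CPM in the WT and KO library.

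The label matched the markers that the rule did not use. After every cell was thinned to 2000 UMIs, Il2ra was seen in 41.9% of WT and 47.6% of KO members, against 14.3% and 9.2% of conventional CD4 cells. Tnfrsf4 was seen in 66.7% and 77.8% of members, against 23.2% and 27.7% of conventional CD4 cells. Ctla4 reached 75.3% and 82.5% of members and Ikzf2 89.2% and 88.9%. Cd4 itself, which the rule did not ask for, was present in 80 WT members (77.7%) and 155 KO members (79.1%), and the gamma delta receptor gene Trdc in 2 members of each library. The barcodes the rule left out also held Foxp3: 25 WT and 85 KO cells had a Cd8a or Cd8b1 UMI beside it, 11 and 23 lacked a CD3 UMI, 3 and 40 held C1qa, and 5 and 25 were over the mitochondrial limit.

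**Figure D1:**
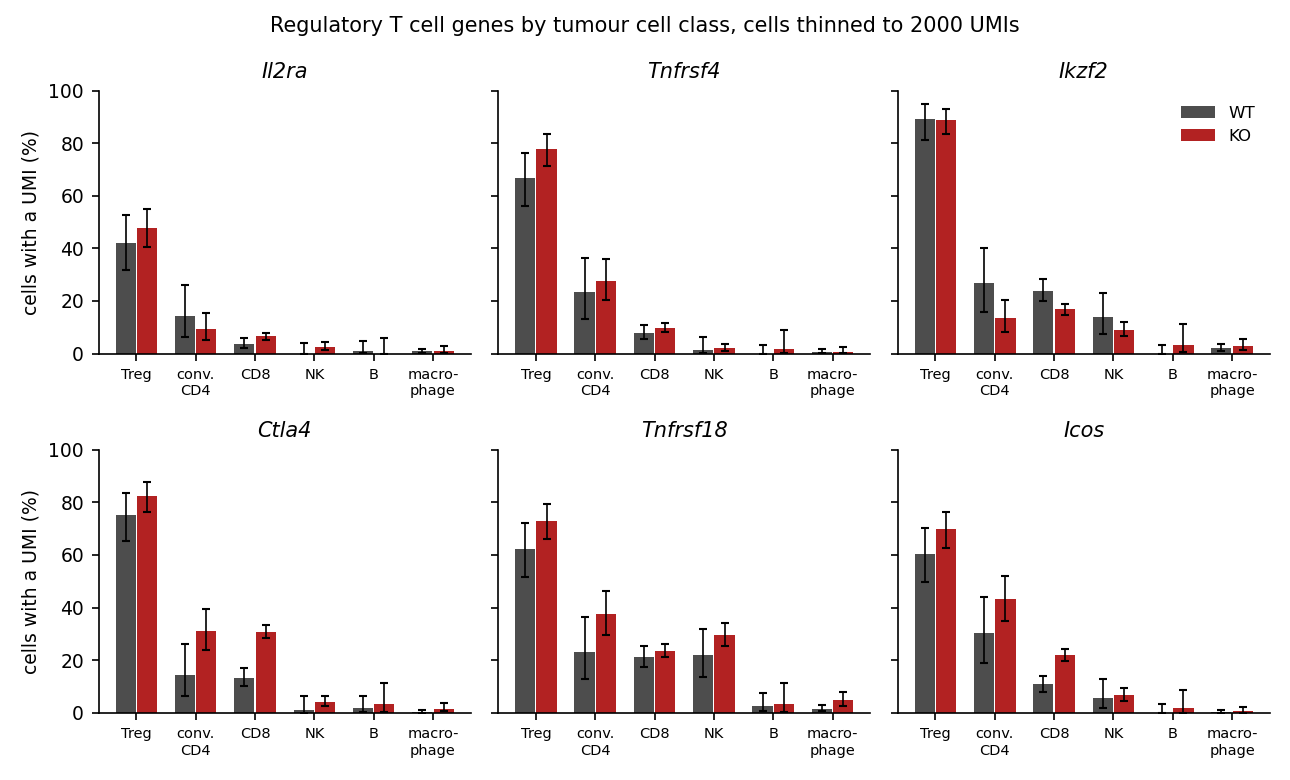
Percent of cells with at least 1 UMI of 6 Treg markers after thinning to 2000 UMIs, in members, conventional CD4, CD8 T, NK and B cells and macrophages of the WT and KO tumour libraries. Members stand above conventional CD4 cells for each marker, for example 41.9% against 14.3% for Il2ra in WT, and bars show exact Clopper-Pearson 95% intervals.

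Some members also carried RNA of another lineage, which is how a droplet with a pair of cells looks. By markers (at least 10 UMIs of H2-Aa plus H2-Ab1, of Lyz2, or of S100a8 plus S100a9, or at least 3 UMIs of other lineage genes) 11 of 103 WT members (10.7%) and 28 of 196 KO members (14.3%) were mixed, and these held 22.3% and 19.5% of the members' UMIs. The 10 dendritic cell markers summed to 4733 CPM in WT and 3490 CPM in KO members, and to 351 and 476 CPM without the mixed members. The 8 macrophage markers summed to 526 and 487 CPM, and to 112 and 67.7 CPM without the mixed members, with Adgre1 at 0 in both libraries. The 7 neutrophil markers summed to 354 and 67.7 CPM in WT and KO, and to 83.3 and 6.42 CPM without them, with Ly6g at 0 in both libraries. Neutrophil RNA was therefore higher in the WT library's members. The 6 NK markers went the other way, with sums of 2.02 and 145 CPM in WT and KO, and of 1.30 and 21.0 CPM without the mixed members. The 5 CD8 T markers that the rule left free, Nkg7 and Ccl5 among them, summed to 1154 and 2407 CPM, and the 6 B cell markers to 448 and 273 CPM. Without the mixed members these sums were 1393 and 2520 CPM for CD8 T markers and 336 and 271 CPM for B cell markers. No CD8 T marker was used to find mixed members, so leaving them out does not deal with RNA of CD8 T cells. Each result below is therefore given with and without the mixed members where the difference matters, and the part of other cells' RNA in it was not tested beyond that.

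Members were a larger share of all immune cells in the KO tumour library and a smaller share of its T cells. They made up 2.56% (95% interval 2.1 to 3.1) of WT tumour cells and 4.21% (3.65 to 4.83) of KO tumour cells, a difference of 1.65 percentage points (0.886 to 2.41). After thinning to 2000 UMIs and applying the rule again the shares were 1.95% and 3.43%, with a difference of 1.48 points (0.777 to 2.19). Another setting left out members with at least 3 UMIs over other lineage genes, or with more than 3 times the members' median depth. Its lineage sum did not count H2-Aa, H2-Ab1, Cd74, Lyz2, Apoe, S100a8 or S100a9. That setting kept 60 WT and 91 KO cells, and the difference was 0.462 points with an interval that includes 0 (-0.0945 to 1.01). The share of all tumour cells thus depended on how strictly members were defined.

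Among CD3+ cells, of which there were 924 in WT and 2380 in KO, members were 11.1% in WT and 8.24% in KO, lower by 2.91 points (-5.34 to -0.704 for KO minus WT). After thinning the shares were 9.04% and 7.24% and the interval of the difference included 0 (-4.26 to 0.371). Within the CD4 lineage, members were 60.2% of WT and 57.5% of KO cells, and a difference of -2.76 points (-11.6 to 6.32) was not detectable at these cell numbers. After thinning the shares were 55.6% and 56.7%, and the difference turned to 1.11 points (-9.18 to 11.6). CD8 T cells numbered 432 in WT and 1317 in KO, so there were 23.8 members per 100 CD8 T cells in WT and 14.9 in KO, a ratio of 0.624 (0.477 to 0.820). The thinned ratio was 0.735 (0.538 to 1.01). The order of the genotypes therefore depended on the denominator: KO was higher per immune cell, and lower per CD3+ cell and per CD8 T cell. The 25 WT and 85 KO cells with Foxp3 and a Cd8a or Cd8b1 UMI were counted among CD3+ cells. They were counted neither as members nor as CD8 T cells, and shares with them as members were not made.

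**Figure D2:**
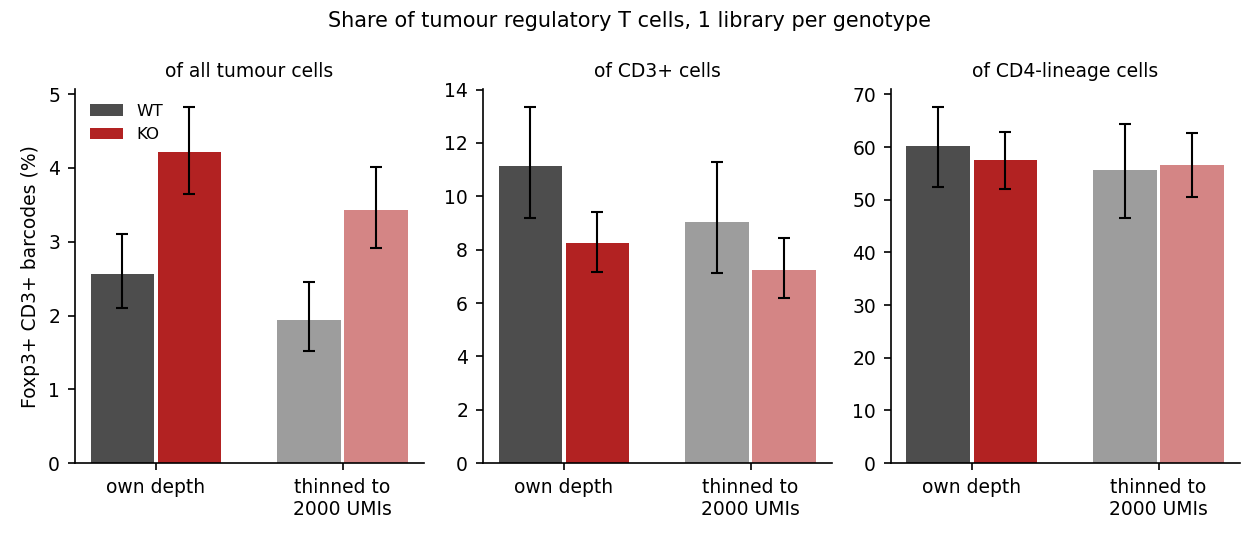
Share of members among all tumour cells, CD3+ cells and CD4-lineage cells, in percent, for the WT (grey) and KO (red) tumour library, at the cells' own depth and after thinning to 2000 UMIs. Bars show exact Clopper-Pearson 95% intervals, and the KO library is higher in the first panel (4.21% against 2.56%) and lower among CD3+ cells (8.24% against 11.1%).

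Members differed among themselves in division and in resting-type genes. Cycling members, with at least 2 UMIs over 8 division genes such as Mki67 and Top2a, were 30 of 103 in WT (29.1%, 20.6 to 38.9) and 75 of 196 in KO (38.3%, 31.4 to 45.5). At 2000 UMIs per cell they were 6.45% of WT (2.40 to 13.5) and 14.8% of KO (10.1 to 20.7). The share was higher in KO at either depth. The separate intervals overlapped, which does not measure the difference, and no interval was made for the difference itself. Resting-type members, with at least 2 UMIs over 6 genes of recirculating T cells, Ccr7, Lef1, Tcf7, S1pr1 and Klf2 among them, were 39.8% of WT and 51.0% of KO, and 9.68% and 14.3% after thinning. The name stands for these genes only, as 15 of the 41 WT and 50 of the 100 KO resting-type members were also cycling. Their median depth was 9158 UMIs against 6598.5 in the other WT members, and 8839.5 against 7690.5 in KO. Il7r was lower in them, at 696 against 890 CPM in WT and 301 against 408 CPM in KO. Some activation receptors were higher outside the resting-type cells in both libraries, and others were not. Ctla4 stood at 1082 CPM in the other WT members against 679 CPM in resting-type ones, and at 1837 against 1299 CPM in KO. Tnfrsf4 stood at 1222 against 664 CPM in WT and at 1529 against 1096 CPM in KO. Icos, in contrast, stood at 614 against 629 CPM in WT and at 967 against 751 CPM in KO, and Il2ra at 467 CPM in both kinds of WT member and at 417 against 357 CPM in KO. Klrg1, a receptor of terminally differentiated lymphocytes, stood at 292 against 87 CPM in WT and at 185 against 165 CPM in KO.

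For each gene the UMIs were summed over the members of a library, and a gene counted as apart when its CPM differed at least 1.5-fold between KO and WT, which is 0.58 on the log2 scale. Of 4984 genes with a mean of at least 30 CPM, 187 were higher in KO (3.75%) and 324 were lower (6.5%), and the median log2 ratio was -0.04. Without the mixed members the counts were 177 and 396 of 4946 genes. The share of higher genes among those apart was 36.6%, became 44.6% when ratios were scaled to their median, and was 57.7% when each gene's richest cell in each library was left out. The balance of higher and lower genes was therefore not a stable feature, and the lists of related genes below are read against 3.75% and 6.5%.

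Several lists held more genes apart in 1 direction than the whole set: interferon, immediate early and costimulation genes on the higher side, quiescence and hypoxia genes on the lower side. All log2 ratios are KO over WT. On the type II interferon list, which collects genes chiefly induced by interferon gamma, 16 of 27 measured genes were higher and 0 were lower (median 0.61). Of 18 immediate early genes 12 were higher and 1 was lower (median 0.87). On the list of costimulation and NF-kB genes 5 of 9 measured genes were higher and 0 were lower (median 0.61). Of 8 genes of the glucocorticoid and quiescence list 0 were higher and 4 lower, with a median of -0.59, and of 23 glycolysis and hypoxia genes 0 were higher and 6 lower, with a median of -0.31. Without the mixed members the counts of genes apart in those directions were 15, 11, 2, 3 and 6, and the medians 0.60, 0.75, 0.44, -0.48 and -0.24, so the costimulation list kept its median above 0 but had fewer genes past 1.5-fold. Other lists had few genes apart. Of 16 T cell receptor and interleukin-2 signalling genes 2 were higher and 0 lower (0.07), of 12 chemokine receptor and homing genes 0 and 1 (-0.07), of 9 genes of the Th1-like programme 0 and 1 (-0.18), and of 11 apoptosis and survival genes 1 and 0 (-0.12). The Th1-like median turned with the setting, to 0.58 with members thinned and 0.17 without each gene's richest cell, and its lower gene was the chemokine receptor Cxcr3. Of 20 cell cycle genes 3 were higher and 1 was lower (0.29), and the lower one, Mki67, had 322 of its 634 WT UMIs in 1 cell.

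**Figure D3:**
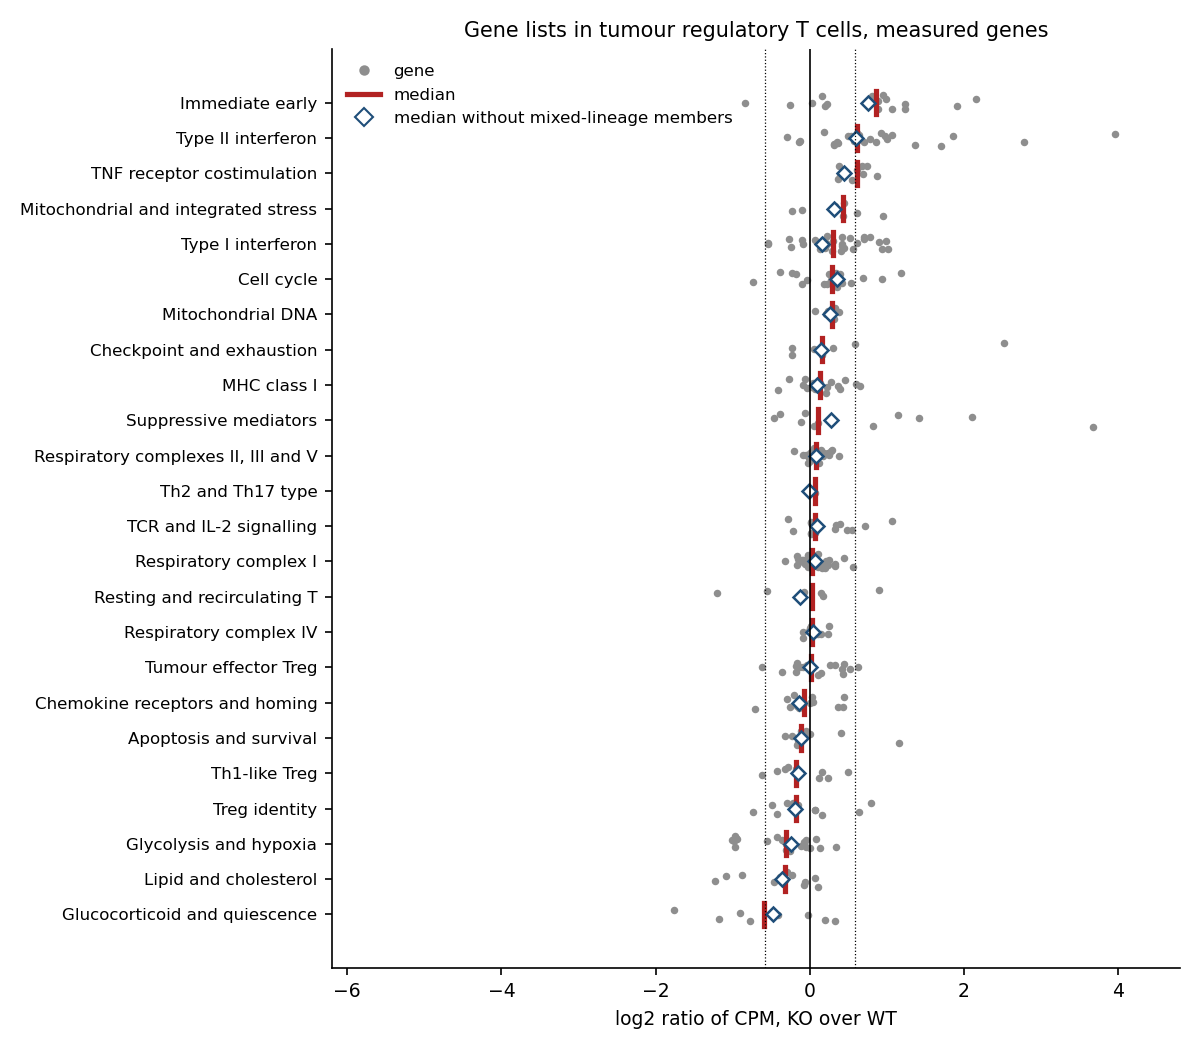
Log2 ratio of KO to WT CPM in members for each measured gene of each list, 1 point per gene, with the list median as a red line and the median without the mixed-lineage members as a diamond. Dotted lines mark 1.5-fold, and the type II interferon and immediate early lists lie mostly to the higher side (medians 0.61 and 0.87) while the quiescence list lies to the lower side (median -0.59).

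Most core identity genes were inside 1.5-fold between the genotypes, and Ctla4 was the one farthest above it. Of 12 measured identity genes outside the rule, 2 were higher (Ctla4 and Foxo1) and 1 was lower (Itgae), and the median was -0.18, which turned to 0.07 with members thinned. Without the mixed members Ctla4 was the gene apart, and Foxo1 was at 0.54. Ctla4 (ENSMUSG00000026011, chromosome 1, 60887000 to 60915832) had 860 UMIs in WT and 3209 in KO, that is 870 and 1508 CPM, a log2 ratio of 0.79 (0.68 to 0.90) and 0.76 without the mixed members. Ikzf2 had 1934 CPM in WT members and 2031 CPM in KO members, with a log2 ratio of 0.07. Il2ra had 467 and 380 CPM (-0.30, -0.46 to -0.13), but a single WT cell held 78 of its UMIs, and its ratio ran from -0.37 to 0.35 over the other settings. Tnfrsf18, which encodes GITR, had 709 and 746 CPM. Ikzf4, the gene of the Foxp3 partner Eos, had 132 and 94.5 CPM (-0.49), and Itgae, the integrin that binds E-cadherin, had 167 and 101 CPM (-0.73), or -0.39 without the mixed members.

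Genes of the activated tumour Treg programme mostly stayed inside 1.5-fold. Of 19 measured genes 1 was higher (Nt5e) and 1 was lower (Rora), and the median was 0.02. Several receptors of the TNF receptor and CD28 families were above 0 without reaching that limit. Tnfrsf4, the OX40 receptor, stood at 929 CPM in WT members and 1264 CPM in KO members, with a log2 ratio of 0.45 (0.34 to 0.55). Tnfrsf9 (4-1BB) had 458 and 617 CPM (0.43), and Icos 622 and 835 CPM (0.42). Nt5e encodes CD73, which makes adenosine, and had 75.9 and 117 CPM (0.62). Rora, a nuclear receptor of tissue lymphocytes, had 292 and 191 CPM (-0.62). Ccr8, a chemokine receptor typical of tumour Treg cells, was below the expression limit with 21 and 65 UMIs and a log2 ratio of 0.52 (-0.20 to 1.31).

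Genes of costimulation and NF-kB signalling were higher in KO members. Cd27, a costimulatory TNF receptor, went from 207 CPM in WT to 335 in KO (0.69, 0.47 to 0.92). Nfkbia, the gene of the NF-kB inhibitor IkB alpha and itself an NF-kB target, had 388 and 624 CPM (0.68). Tnfaip3, the gene of the inhibitor A20, had 121 and 222 CPM (0.87), and Nfkb2, a subunit of the alternative NF-kB pathway, had 67.8 and 113 CPM (0.74). Birc3, which encodes a survival protein bound to TNF receptors, was at 0.61. Without the mixed members Cd27 (0.67) and Tnfaip3 (0.85) stayed past 1.5-fold, whereas Nfkbia (0.57), Nfkb2 (0.53) and Birc3 (0.44) were just inside it.

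Mediators of suppression split into a group that was higher in KO and a group that was not. Of 11 measured mediators 5 were higher, Areg, Prf1, Il10, Lag3 and Penk, and 0 were lower, with a median of 0.10. Without the mixed members 4 were higher, as Penk was at 0.49. Areg (ENSMUSG00000029378, chromosome 5, 91139599 to 91148432) encodes amphiregulin, a growth factor that Treg cells use in tissue repair. It had 18 UMIs in 8 WT members and 496 UMIs in 58 KO members, that is 18.2 CPM (10.8 to 28.8) and 233 CPM (213 to 255). The log2 ratio was 3.68 (3.00 to 4.45), and 4.37 without the mixed members. After thinning, 4.3% of WT members and 21.7% of KO members had an Areg UMI. The shares were 0% and 3.55% in conventional CD4 cells and 0.235% and 1.85% in CD8 T cells. They were 0% in B cells of both libraries and 0.622% and 0.645% in macrophages. Areg RNA was therefore in a minority of cells in either library and in a larger one in KO.

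Il10 (ENSMUSG00000016529, chromosome 1, 131019845 to 131024974) encodes the inhibitory cytokine interleukin-10. It had 49 and 281 UMIs, or 49.6 and 132 CPM, a log2 ratio of 1.41 (0.97 to 1.88) and 1.40 without the mixed members. The thinned share of members with Il10 was 7.5% (3.1 to 14.9) in WT and 20.1% (14.6 to 26.5) in KO. In KO it was higher outside the cycling cells (172 CPM against 96 CPM in cycling ones), while in WT it was lower there (25 against 73 CPM). Lag3, an inhibitory receptor for MHC class II, had 98.1 and 217 CPM (1.15, 0.83 to 1.48). The thinned share of members with Lag3 was 12.9% in WT and 38.6% in KO.

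Prf1 encodes perforin, the pore-forming protein of cytotoxic granules. It had 14 and 130 UMIs, or 14.2 and 61.1 CPM (2.11, 1.31 to 3.02), and 1.65 without the mixed members. Penk, the gene of the enkephalin precursor, had 127 and 226 CPM, but single cells held 110 of the 126 WT UMIs and 98 of the 480 KO UMIs, so its ratio ran from -0.91 to 3.87 over the other settings. The remaining mediators were within 1.5-fold: Gzmb, the gene of granzyme B, had 837 and 899 CPM, Tgfb1 209 and 193 CPM, Fgl2 478 and 367 CPM, and Ebi3, a subunit of interleukin-35, 55.6 and 40.4 CPM.

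**Figure D4:**
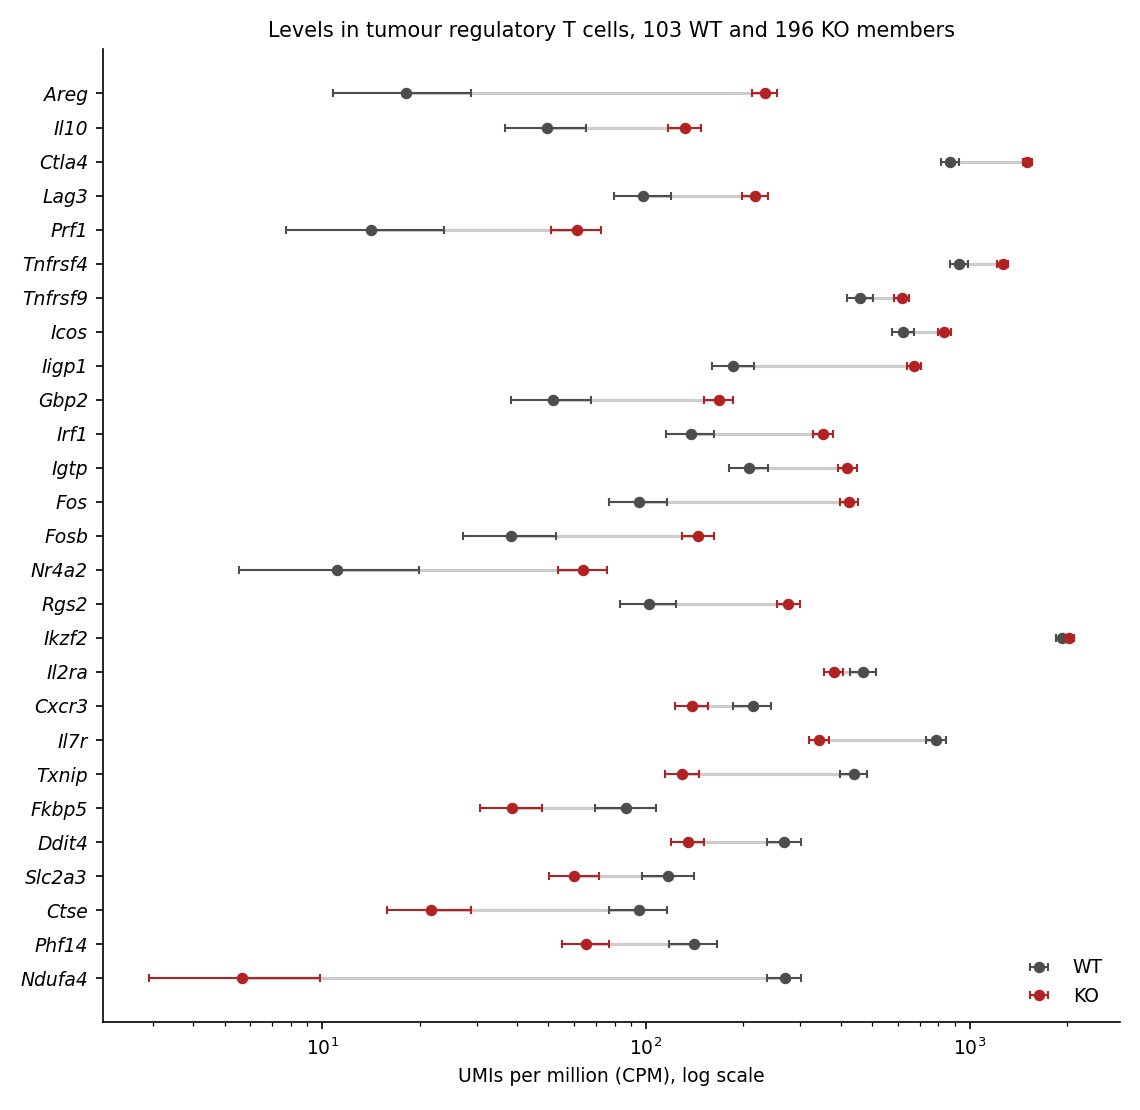
CPM of 27 genes in members of the WT (grey) and KO (red) tumour library on a log axis, with exact Poisson 95% intervals of the summed UMIs. Areg runs from 18.2 to 233 CPM and Fos from 95.1 to 424 CPM between WT and KO, whereas Txnip runs from 439 to 129 CPM.

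Promoters of interferon gamma target genes often hold a palindrome read as TTCNNNGAA, and those of type I interferon target genes often hold tandem GAAA runs, which interferon regulatory factors bind. The promoters of 3 target genes that were apart in the members are shown because they carry one or both patterns. Each is the 110 bases before the RefSeq start on the + strand of GRCm38.p6, and the capitals mark the matches.
Gbp2, chr3:142620553-142620662: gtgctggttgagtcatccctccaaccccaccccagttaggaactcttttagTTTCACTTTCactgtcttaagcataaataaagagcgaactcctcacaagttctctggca
Igtp, chr11:58199446-58199555: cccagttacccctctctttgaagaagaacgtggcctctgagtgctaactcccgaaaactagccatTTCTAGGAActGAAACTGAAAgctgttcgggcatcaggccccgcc
Irf1, chr11:53769904-53770013: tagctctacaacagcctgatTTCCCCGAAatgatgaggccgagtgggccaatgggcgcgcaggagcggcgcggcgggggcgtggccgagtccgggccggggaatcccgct
Gbp2 holds a pair of GAAA runs with 2 bases between them on the opposite strand, 59 bases before the start. Igtp holds TTCNNNGAA 45 bases and the GAAA pair 34 bases before the start. Irf1 holds TTCNNNGAA 90 bases before the start.

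In the RefSeq table's windows of 300 bases, TTCNNNGAA was found on either strand in 9.55% of 27025 genes, and the GAAA pair in 3.99%. Of the 32 type II interferon genes 20 had a window, and 9 of these (45%) held TTCNNNGAA and 12 (60%) the GAAA pair. Of the 46 type I genes 36 had a window, and 7 (19.4%) held TTCNNNGAA and 21 (58.3%) the GAAA pair. Of 18 immediate early genes 16 had a window, with 1 holding TTCNNNGAA and 0 the GAAA pair. The patterns can overlap one another, and a match is a description of letters and not of binding.

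Interferon gamma target genes were higher in KO members across several families. Iigp1, an immunity-related GTPase, had 184 UMIs in WT and 1431 in KO, or 186 CPM (160 to 215) and 673 CPM (638 to 708), a log2 ratio of 1.85 (1.63 to 2.08) and 1.74 without the mixed members. Igtp, of the same family, had 208 and 419 CPM (1.01, 0.79 to 1.23). Irf1, an interferon-induced transcription factor, had 138 and 353 CPM (1.36, 1.10 to 1.64). Thinned shares showed the same order. Iigp1 was seen in 25.8% of WT and 56.6% of KO members, and Irf1 in 22.6% and 57.1% of members. Conventional CD4 cells also had more in KO, with Iigp1 in 19.6% of WT and 29.1% of KO cells. Irf1 was seen in 26.8% and 41.1% of conventional CD4 cells. Of B cells, 0.885% and 1.64% had an Iigp1 UMI.

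The guanylate-binding proteins, another group of interferon-induced GTPases, were apart as well. Gbp2 had 51.6 and 168 CPM (1.70, 1.28 to 2.15), which became 1.22 without the mixed members, and a single KO cell held 67 of its 357 UMIs. Gbp5 was at 0.98 and Gbp6 at 0.93. Socs1, the feedback inhibitor of cytokine receptors, was at 1.07 and at 0.76 without the mixed members. Cxcl10, a chemokine that draws CXCR3+ T cells, had 8 UMIs in 5 WT members and 267 UMIs in 41 KO members, a log2 ratio of 3.95 (2.96 to 5.18) and 3.57 without the mixed members. Its sister Cxcl9 had 21 and 310 UMIs, of which 196 came from 1 KO cell, and 1 against 8 UMIs were left without the mixed members. The receptor Cxcr3 was lower in KO, with 213 and 139 CPM (-0.62, -0.88 to -0.36). The interferon gamma gene Ifng itself was near the limit of detection in members, with 3 UMIs in WT and 33 in KO.

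Type I interferon and antigen presentation genes were less far apart. Of 31 measured type I genes 8 were higher and 0 lower, with a median of 0.30. Without the mixed members 6 were higher and 2 lower, with a median of 0.16. The higher genes included Rtp4 (1.01), Bst2, which encodes the virus-tethering protein tetherin (0.94), the ubiquitin-like Isg15 (0.90) and Zbp1, a sensor of Z-form nucleic acid (0.70). Ifi27l2a had 1462 and 2502 CPM (0.78), or 0.57 without the mixed members. Ifit1 was at -0.55 and Herc6 at -0.54. Of 17 MHC class I genes 2 were higher, the loading factor Tapbpl (0.65) and the proteasome activator Psme2 (0.60), while the heavy chain H2-K1 was at -0.06 and B2m at 0.07.

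Immediate early genes, which switch on within minutes of receptor signals and also during tissue dissociation, were higher in KO members. Fos had 94 UMIs in WT and 902 in KO, or 95.1 CPM (76.8 to 116) and 424 CPM (397 to 453), a log2 ratio of 2.16 (1.85 to 2.48) and 2.04 without the mixed members. Fosb, its close relative, had 38.4 and 145 CPM (1.91). The MAP kinase phosphatase Dusp1 had 182 and 430 CPM (1.24), and Egr1, a zinc finger factor, was at 1.23. Nr4a1, a nuclear receptor induced by T cell receptor signals, was at 0.84 and at 1.26 without the mixed members. Its relative Nr4a2 had 11 and 136 UMIs (2.52, 1.64 to 3.56). Jun was at -0.26, and the heat shock gene Hspa1b was the lower gene of the list at -0.84. Ier3 was at 0.99 but at -2.05 without the mixed members, as 1 KO cell held 64 of its UMIs. The part of tissue handling in these values was not tested.

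The interferon and immediate early differences were also seen in the median cell, whereas the hypoxia difference was not. With each cell thinned to 2000 UMIs, 93 WT and 189 KO members could be compared. The median cell held 4 immediate early UMIs in WT and 8 in KO, and 7 and 13 type II interferon UMIs. The level that 10.8% of WT cells exceeded, 9.8 immediate early UMIs, was exceeded by 39.7% of KO cells, and the corresponding type II level of 16.4 UMIs by 33.3%. The costimulation list gave medians of 3 and 4 UMIs, and the identity list 14 and 15. The glycolysis and hypoxia list gave medians of 11 and 12 UMIs although its mean was higher in WT (15.5 against 13.3), and 10.8% of WT but 3.17% of KO cells exceeded 31.8 UMIs. The lower KO sum of that list thus lay in a minority of WT cells with many such UMIs. By state, the type II median ratio was 0.77 in resting-type and 0.53 in other members, and 0.50 in cycling and 0.68 in non-cycling ones. The immediate early median ratio was 1.26 in resting-type and 0.19 in other members. Outside the resting-type cells that list was mixed, with 5 of 18 genes higher and 4 lower. Fos was still higher in KO there, at 267 CPM against 126 CPM in WT.

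**Figure D5:**
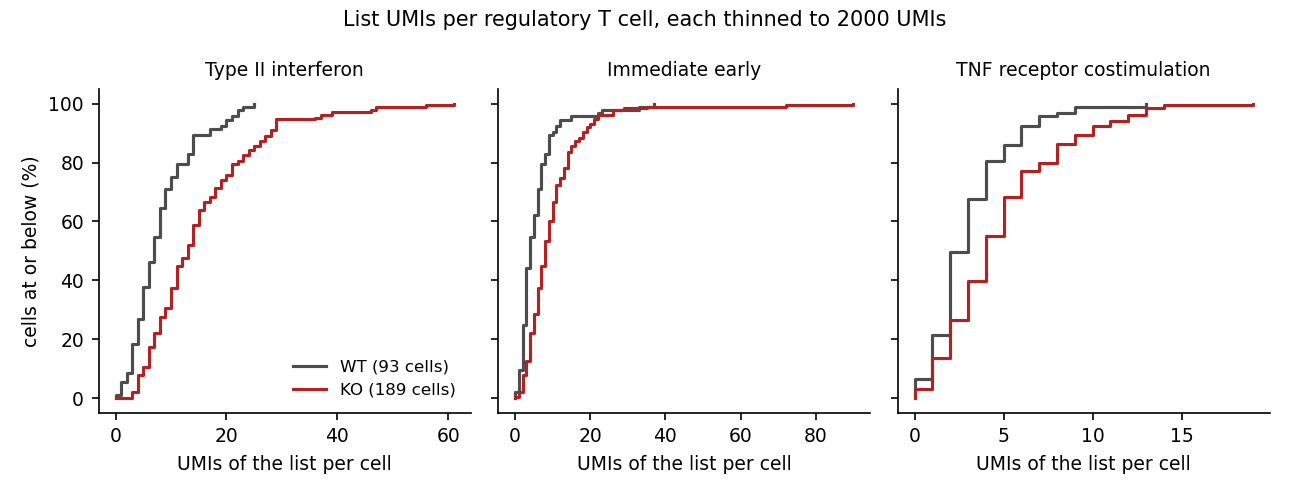
Cumulative percent of members against the number of UMIs of 3 lists per cell, after thinning to 2000 UMIs (93 WT cells, grey, and 189 KO cells, red). The KO curves lie to the right, with medians of 13 against 7 UMIs for type II interferon genes, 8 against 4 for immediate early genes and 4 against 3 for costimulation genes.

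Of the 8 measured glucocorticoid and quiescence genes 4 were lower in KO members, and so was the interleukin-7 receptor gene. Txnip (ENSMUSG00000038393, chromosome 3, 96557957 to 96561883) encodes a protein that restrains glucose uptake and is high in resting lymphocytes. It had 434 UMIs in WT and 275 in KO, or 439 CPM (399 to 482) and 129 CPM (114 to 145), a log2 ratio of -1.76 (-1.99 to -1.54) and -1.84 without the mixed members. It was seen in 60.2% of WT and 28.6% of KO members after thinning. Il7r, the interleukin-7 receptor alpha chain, had 788 and 343 CPM (-1.20, -1.35 to -1.05), with thinned shares of 61.3% and 39.7%. The list of resting and recirculating T cell genes that holds it had 1 of 6 measured genes higher and 1 lower, with a median of 0.03. The glucocorticoid-induced genes Fkbp5 (87.0 and 38.5 CPM, -1.17) and Tsc22d3 (-0.77) were lower, as was Pdcd4, a translation inhibitor (239 and 127 CPM, -0.91). Btg1, an antiproliferative gene of the same list, was at 0.33. Klf2, a factor of resting T cells, did not follow Il7r and had 34.4 and 63.9 CPM.

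The 6 lower genes of the glycolysis and hypoxia list were 2 glucose transporter genes, the hexokinase gene Hk2 and 3 stress or hypoxia-response genes. The glucose transporter gene Slc2a3 had 117 and 60.2 CPM (-0.96), the stress-induced mTOR inhibitor Ddit4 267 and 135 CPM (-0.99), and the lipid droplet gene Hilpda 126 and 65.8 CPM (-0.94). Slc2a1 was at -0.97 and the mitophagy receptor Bnip3 at -1.01, but the ratios of both ended above 0 under at least 1 other setting (up to 0.29 and 0.30). Hk2, the enzyme that starts glycolysis, had 56 and 62 UMIs, or 56.6 and 29.1 CPM (-0.96, -1.50 to -0.41). The other glycolytic enzymes were inside 1.5-fold: Eno1 was at -0.42, Ldha, which makes lactate, at -0.07, Gapdh at -0.11, Pkm at 0.01 and the hypoxia-inducible factor gene Hif1a at 0.14. Of 13 measured lipid and cholesterol genes 0 were higher and 3 lower, Sqle (-1.23) and Hmgcs1 (-0.87) of cholesterol synthesis and the fatty acid carrier Fabp5 (-1.09), which was at -0.15 without the mixed members.

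Ndufa4, the targeted gene (ENSMUSG00000029632, chromosome 6, 11900292 to 11907497), had 265 UMIs in WT members and 12 in KO members, or 268 and 5.64 CPM, a log2 ratio of -5.57 (-6.54 to -4.74). Its neighbour Phf14, which starts 312 bases away, had 139 UMIs in each library, or 141 and 65.3 CPM (-1.11, -1.46 to -0.76). The other respiratory chain genes were level: 0 of 36 complex I genes, 0 of 11 further complex IV genes and 0 of 28 genes of complexes II, III and V were apart, with medians of 0.04, 0.03 and 0.08. The 13 genes of the mitochondrial genome were inside 1.5-fold too, with a median of 0.29. The ratio of Ndufa4 was -5.22 in conventional CD4 and -5.93 in CD8 T cells of the same libraries, and that of Phf14 was -0.36 and -0.64. The members' median mitochondrial share was 2.04% in WT and 2.66% in KO.

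By size alone, the 30 genes with the firmest ratios held several that rested on few cells. Rgs2, a brake on G protein signalling, had 102 and 275 CPM (1.43), or 2.17 without the mixed members, and Serpinb9, the granzyme B inhibitor, had 12 and 118 UMIs (2.19), or 1.78. Ctse, the protease cathepsin E, was lower with 94 and 46 UMIs, 95.1 and 21.6 CPM (-2.14), or -2.33. Pdgfb (-2.20), Nrn1 (-1.58) and Tff1 (-1.58) were lower as well. The granzyme A gene Gzma had 1 UMI in WT and 200 in KO, of which 1 KO cell held 100, and 1 against 13 UMIs without the mixed members. Ifitm3 was at 1.62 with the mixed members and at 0.09 without them, and the NK receptor gene Klrk1 had 15 and 131 UMIs but 0 and 34 without them. Il1b (1.78), Hmox1 (-4.99), Fn1 (-2.46), Prdx1 (-1.24), Mt1 (-1.29), Retnlg (-7.15), Spp1 (-2.73), S100a8 (-2.14) and S100a9 (-2.22) are genes of myeloid or stressed cells. For Hmox1 287 of 310 WT UMIs, for Retnlg 61 of 66, for Fn1 59 of 64 and for Prdx1 452 of 699 came from 1 WT cell.

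The closest T cell classes of the same libraries are set side by side with the members, without a test of the difference. For type II interferon genes the median log2 ratio was 0.61 in members, 0.93 in conventional CD4 and 0.47 in CD8 T cells, and Iigp1 stood at 1.85, 1.09 and 1.49. For immediate early genes the medians were 0.87, 0.27 and 0.85, with Fos at 2.16, 1.31 and 2.79. Txnip was lower in each class, at -1.76, -1.55 and -1.22, as was Ctse at -2.14, -1.94 and -2.18. Areg had 0 and 62 UMIs in conventional CD4 cells and a ratio of 3.59 in CD8 T cells. These patterns were therefore present in other T cells of the KO library too. In conventional CD4 cells 6 of 17 immediate early genes were higher and 2 lower, beside 12.3% and 10.5% of all measured genes. Outside T cells the type II medians were 1.72 in macrophages, 1.38 in B cells and 0.48 in NK cells. The immediate early medians there were 0.33, 0.30 and 0.89.

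Other ratios lay apart between the classes. Ctla4 was at 0.79 in members, 0.14 in conventional CD4 and 1.45 in CD8 T cells. The thinned share of conventional CD4 cells with a Ctla4 UMI was nevertheless 14.3% in WT and 31.2% in KO. Lag3 was at 1.15, 1.02 (-0.24 to 2.55) and 0.13. Tnfrsf4 was at 0.45, -0.56 and -0.20, and Cd27 at 0.69, -0.67 and -0.20. The costimulation and NF-kB list as a whole was not particular to the members. Its median was 0.61 in members, 0.66 in conventional CD4 cells, 0.67 in macrophages and 0.12 in CD8 T cells. In members 5 of 9 measured genes were higher and 0 lower, in conventional CD4 cells 5 and 1 of 9, and in macrophages 5 and 0 of 6. Over all measured genes 3.75% were higher in members, 12.3% in conventional CD4 cells and 9.54% in macrophages. The thinned share of conventional CD4 cells with Tnfrsf4 was also higher in KO (27.7% against 23.2%), against the direction of its CPM. Mediators of suppression were not higher in members alone. Their median was 0.10 in members, 0.16 in conventional CD4, 0.49 in CD8 T and 0.77 in NK cells. It was 0.22 in macrophages and -0.49 in B cells. In CD8 T cells 3 of 6 were higher and 1 lower, and in NK cells 4 and 0 of 6. Of all measured genes 2.88% and 3.70% were higher in these 2 classes. Ccl5, a chemokine of cytotoxic cells, had 731 and 1456 CPM in members (0.99), with ratios of 1.06 in conventional CD4 and -0.27 in CD8 T cells, and Nkg7, a granule protein gene, gave 1.17, 0.99 and 0.03. Il7r was at -1.20, -0.74 and -0.38. For glycolysis and hypoxia genes the medians were -0.31, 0.35 and 0.04, with Slc2a3 at -0.96, -0.56 and 0.48. Outside the T cells the median of that list was -0.82 in B cells, -0.51 in macrophages and -0.16 in NK cells.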

How the data were processed

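The deposited files hold raw UMI counts per gene and barcode for 4 libraries, made by the authors with 10x 3' v3.1 chemistry. Per the file headers the counts come from Cell Ranger 6.0.0, whereas the submitters' processing notes give 3.1 and the mm10/GRCm38 build. Members and lists were chosen with earlier results of these data known. UMIs were summed over the members of a library and divided by their total to give CPM (Python 3.11.15, numpy 2.4.6, scipy 1.17.1, pandas 2.3.3). Intervals (95%) are Clopper-Pearson for shares, Newcombe for their differences, Poisson for CPM and conditional binomial for ratios. A gene at 0 UMIs was bounded from 3 counts per class. The ratio script was tested on simulated data. Thinning drew 2000 UMIs per cell without replacement, and it left out 10 WT and 7 KO members. Genes were named by list, or as the 15 in each direction whose interval bound nearest 0 was farthest from it, leaving out rule, receptor, immunoglobulin, haemoglobin, ribosomal, mitochondrial and unnamed genes. No doublet caller was run; mixed barcodes were found by markers. Alternatives changed the limits, rule, depth, scaling and weighting. Some members of the lists and of the resting-type rule are not reported here by name.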

Additional observations from a re-analysis of the deposited data

How the results depend on the processing

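No paired analysis was possible because each group is 1 pooled library, so there was also no replicate to leave out. The share of tumour cells was 1.65 points higher in KO, and 0.462 points without members that carried other lineage markers or high depth. Counts of genes apart (187 higher, 324 lower) were 529 and 603 under that setting, 715 and 936 with cells thinned before the rule, 647 and 811 with members thinned, 479 and 970 at a mean of at least 10 CPM, and 45 and 50 at 2-fold. The higher count was 381 with equal weight per cell and 428 without cycling members, and the lower count was 195 without each gene's richest cell. The share of higher genes among those apart, 36.6%, was 47.0% with equal weight, 47.1% without cycling members, 46.7% without other lineage markers or high depth, and 47.4% at 2-fold. The ratio turned for Il1b (-1.41 without other lineage markers or high depth, -0.79 without mixed-lineage members), Fn1 (1.03 with Cd4 required, 0.94 without cycling members, 0.27 without its richest cell), Prdx1 (0.12 without mixed-lineage members, 0.16 without its richest cell) and Mt1 (0.56 without other lineage markers or high depth); the cause was not tested where a single cell did not hold the UMIs. Of the list medians 12 moved and 324 did not over these settings, and of the values of genes named by size 95 moved, 8 turned and 312 did neither. The glucocorticoid and quiescence median was -0.25 and the suppressive median 0.83 without other lineage markers or high depth. For Fn1, Gzma and Retnlg 5 values could not be given because too few UMIs were left. Leaving out mixed-lineage members or each gene's richest cell was chosen after seeing the data. Depth limits genes under 30 CPM, such as Ccr8 and Ifng, and WT shares rest on 103 cells.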
